A study of Mus musculus with 2 samples.

Results

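Cadherin genes and other genes of cell adhesion and epithelial identity were followed in cultured cells of mouse urogenital sinus mesenchyme (UGM), the fetal stroma that instructs the neighbouring epithelium to form the prostate. These 9 genes were taken by symbol, as every probe set annotated to 1 of the symbols alone: 6 epithelial-type genes (Cdh1, Cdh3, Epcam, Esrp2, Trp63 and Eppk1) and 3 mesenchymal-type genes (Cdh2, Cdh11 and Ncam1), out of 18193 named genes on the array. The genes were proposed with the values of these same arrays in view, so all values below describe the 2 arrays. The UGM cells were from male C57BL/6 mice, given as day 16. Untreated cells were kept for 72 h in RPMI medium holding 5% serum stripped of steroids by dextran-coated charcoal and 5 µg/ml of the antibiotic Plasmocin. T+E2 cells also received 12 nM testosterone and 120 pM estradiol-17 beta, and each condition had 1 array. The sample titles give 24 h in place of 72 h. The descriptions call the untreated culture confluent and the T+E2 culture nearly so, while the growth protocol gives 80% for both. Cell density, which bears on cadherin junctions, therefore may differ between the cultures and cannot be told apart from the treatment. How many animals or embryos gave the cells was not given in the sources used here.

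Cadherins are calcium-dependent adhesion proteins of adherens junctions. Their intracellular tails bind beta-catenin and p120-catenin, and alpha-catenin links the complex to actin. Epithelia typically carry E-cadherin (Cdh1), with P-cadherin (Cdh3) in basal layers, whereas mesenchyme typically carries N-cadherin (Cdh2) and cadherin-11 (Cdh11). In epithelial-mesenchymal transition, repressors of the Snail, Zeb and Twist families lower Cdh1 and other epithelial genes, and the Esrp proteins hold epithelial splicing patterns in place.

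Levels are the log2 of the deposited GCRMA intensity, GCRMA being a method that corrects background by probe sequence and normalizes the arrays. A floor of 5 (intensity 32) was set on both arrays before a difference, T+E2 minus untreated, was formed. A gene with 1 array or both at this floor is called measured, and where only 1 did so, the difference is a lower bound. A log2 difference of 1 (2-fold) was used to count genes. Levels of different probe sets do not rank genes, since each probe set has its own affinity. With 1 array a group there was no replicate check and no p-value, and precision is limited by the number of arrays. The 18 hybridization spikes, added to both samples, differed by -0.25 to 0.09 (SD 0.12), which does not cover the spread between cultures. Over the 10267 measured genes the median difference was 0.07 (interquartile range -0.32 to 0.45). In whole-culture RNA, a change in the number of cells that carry a transcript and a change in its amount per cell cannot be told apart.

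Of the 9 genes, 7 were measured and 2 (Cdh3 and Epcam) were not. With T+E2, Cdh1 and Eppk1 were past 2-fold on the higher side, 0 were 2-fold lower, and the other 5 lay between. Of the 7, 6 lay above 0, as did 55.8% of all measured genes. Over all measured genes 4.96% were at least 2-fold higher and 4.01% at least 2-fold lower. Since the genes were chosen on these arrays, nothing is read from that contrast. The epithelial-type genes split into Cdh1 and Eppk1, which were low or under the floor without hormone, and Esrp2 and Trp63, which were above it on both arrays. The mesenchymal-type genes were all well above the floor on both arrays. The median difference was 1.42 over the 4 measured epithelial-type genes and 0.54 over the 3 mesenchymal-type genes. Eppk1 entered through the T+E2 array alone, so its difference could only lie above 0. The value of 1.42 falls between Cdh1 (2.20) and Esrp2 (0.64), whose probe sets disagree on its presence. Nothing is read from the contrast of the 2 medians. Without a floor Cdh3 and Epcam entered the epithelial-type median at differences of 0.02 and 0.01, and it stood at 0.55. The mesenchymal-type median stood at 0.00 once a smooth trend on genomic span, described with Cdh2, was subtracted, and at 0.36 when probe sets were averaged, where Ncam1 has no value.

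**Figure D1:**
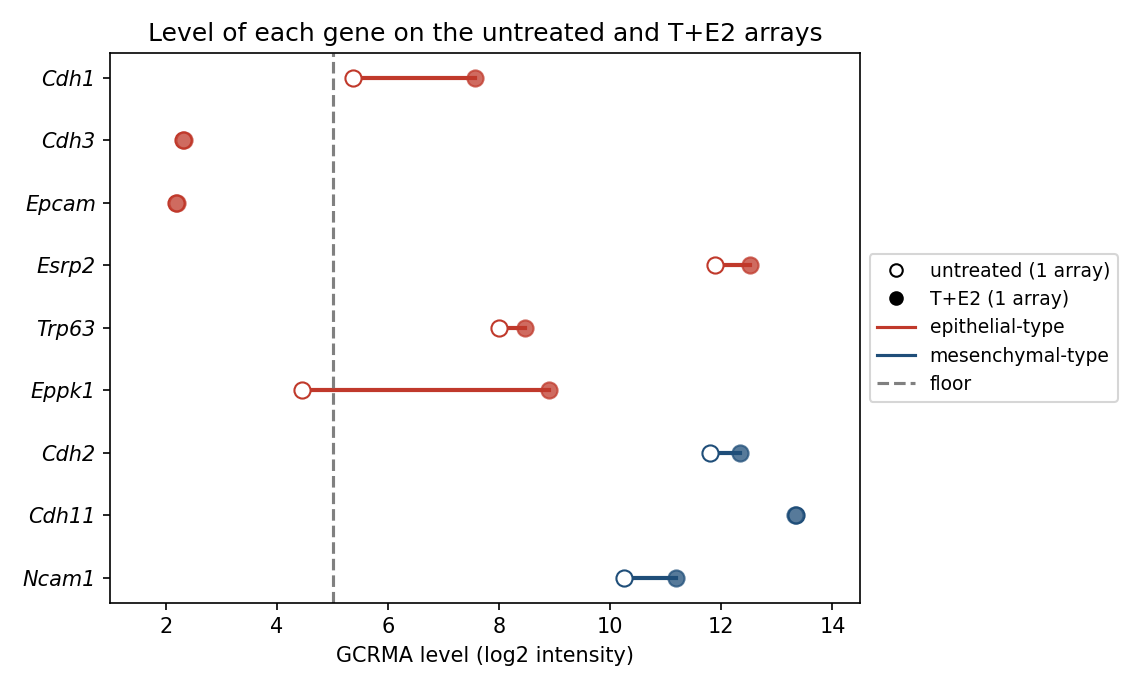
The log2 GCRMA level (horizontal axis) of each of the 9 genes on the untreated array (open points) and the T+E2 array (filled points), with the floor of 5 as a dashed line. Eppk1 crosses the floor, Cdh1 moves from 5.37 to 7.57, Cdh3 and Epcam stay near 2 on both arrays, and the open and filled points of Cdh11 coincide.

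Among the adhesion receptors, Cdh1, which encodes E-cadherin, was at an intensity of 41.4 untreated and 190 with T+E2. On the log2 scale it went from 5.37, just above the floor, to 7.57, a difference of 2.20 (4.59-fold). Its 1 probe set was the only measurement of the gene, so no other probe set could be set beside it. Low-level genes spread more between these arrays. Among 650 measured genes with a mean log2 of 6 to 7, where Cdh1 lies, the SD of the difference was 0.94 and 15.5% were at least 2-fold higher and 8% at least 2-fold lower. Among 5365 genes with a mean of 10 or more, the SD was 0.52 and the shares were 2.07% and 2.31%. With the floor raised to 6 the difference of Cdh1 was at least 1.57.

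Cdh3, the gene of P-cadherin and the direct neighbour of Cdh1 in the RefSeq table, was at 2.31 untreated and 2.33 with T+E2. Its second probe set was at 2.14 and 2.16. Both lay close to the lowest values on the arrays (1.93 and 1.91), so no transcript was detectable with either treatment and no difference is given. The gene on the other side of Cdh1, Tango6, was at 4.99 and 5.02, on the floor.

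Epcam, which encodes an epithelial cell adhesion molecule found on most simple epithelia, was at 2.19 untreated and 2.20 with T+E2. Its second probe set was at 2.14 and 2.15. Like Cdh3, it was not detectable on either array.

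Cdh2, the gene of N-cadherin, was at 3546 untreated and 5160 with T+E2, a log2 difference of 0.54 (1.46-fold). A second probe set, which the gene value did not use, was at 678 and 1098, a difference of 0.70. Both probe sets, which come from 1 sequence record, were thus moderately higher with T+E2. Cdh2 spans 220370 bases, and long genes tended to be higher on the T+E2 array. The median difference was -0.19 over the fifth of measured genes with the shortest spans and 0.46 over the fifth with the longest. After a smooth trend on span was subtracted, Cdh2 stood at 0.00.

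Cdh11, which encodes the type II cadherin of mesenchyme and bone-forming cells, was at 10330 untreated and 10231 with T+E2, a difference of -0.01. Its second probe set was at 6019 and 6950, a difference of 0.21. The probe sets lay on opposite sides of 0, and neither came near 2-fold. With the span trend removed Cdh11 stood at -0.49. The mesenchymal cadherin genes therefore stayed above the floor on the array where Cdh1 was higher, and neither was 2-fold lower in any of the settings tried.

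Ncam1 encodes the neural cell adhesion molecule, an immunoglobulin-type receptor also carried by several fetal mesenchymes. It was at 1214 untreated and 2326 with T+E2, a log2 difference of 0.94 (1.92-fold), just short of the 2-fold count. A second probe set, designed from the same sequence record, was at 816 and 1529, a difference of 0.91. The other 5 probe sets of Ncam1 lay between 2.09 and 2.33 on both arrays. Of the 7 probe sets, then, the 2 that share a sequence record gave signal and moved together. Ncam1 has the longest genomic span of the 9 genes (297265 bases), and with the span trend removed it stood at 0.34.

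Esrp2, Trp63 and Eppk1 work inside the cell. Eppk1 encodes epiplakin, a giant plakin-repeat protein that binds keratin filaments in epithelia. Its 1 probe set was at an intensity of 21.8 in untreated cells, under the floor, and at 476 with T+E2. The difference was at least 3.90 (at least 14.9-fold), or 4.45 without a floor. The floor set the size of this bound, at least 2.90 at a floor of 6 and 4.45 at a floor of 4. Eppk1 spans 18708 bases, and removing the span trend left it at 3.93. Of its neighbours in the RefSeq table, Nrbp2 was lower with T+E2 (-0.91), while BC024139, whose span overlaps that of Eppk1 by 679 bases, was under the floor on both arrays (2.21 and 2.22) and has no difference.

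Trp63 encodes p63, the transcription factor of basal and stratified epithelia, including basal cells of the prostate. It was at 255 untreated and 352 with T+E2, a log2 difference of 0.47 (1.38-fold). That value rests on 1 of 4 probe sets. The other 3 lay between 2.11 and 2.35 on both arrays. With the span trend removed (the gene covers 208326 bases) Trp63 stood at -0.06. Of the genes that flank Trp63, P3h2 was at 10.12 untreated and 11.13 with T+E2 (1.01), and Tprg was under the floor on both arrays. Keratins 5 and 14, which mark the p63-positive basal layer (Krt5 and Krt14), were under the floor on both arrays, at 2.35 and 2.40 for Krt5 and at 2.13 and 2.14 for Krt14.

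Esrp2 encodes an RNA-binding protein that directs epithelium-specific splicing, for example of FGF receptor 2. The probe set that gave its value was at 3782 untreated and 5889 with T+E2, a log2 difference of 0.64 (1.56-fold). The other Esrp2 probe set was at background, at an intensity of 4.30 untreated and 4.34 with T+E2. The 2 probe sets of this gene therefore gave opposite answers to whether Esrp2 was present at all.

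The bright Esrp2 probe set is designed from the same sequence record as a probe set of Nfatc3, the gene next to Esrp2, which encodes a calcium-regulated transcription factor. The spans of Esrp2 and Nfatc3 overlap by 219 bases in the RefSeq table. The Nfatc3 probe set from that record was at 2937 untreated and 4904 with T+E2, a difference of 0.74. A second Nfatc3 probe set, from another record, was at 77.2 and 131, a difference of 0.77. The bright Esrp2 probe set thus differed between the arrays about as much as both Nfatc3 probe sets. Sharing a record between different genes was uncommon, at 91 (0.26%) of the 34945 probe sets that name 1 gene. The bright Esrp2 probe set also carries the suffix _s_at, used by the manufacturer for probes that match more than 1 transcript, as did 5.24% of those probe sets. Esrp2 also overlaps a non-coding RNA gene, 1810019D21Rik, by 1794 bases. Its 1 probe set was at 7.06 untreated and 4.37 with T+E2, at least 2.06 lower on the log2 scale with T+E2 and so on the other side. Pla2g15, the flanking gene opposite Nfatc3, differed by 0.61. Esrp1, the paralog of Esrp2, was under the floor on both arrays. Signal from Nfatc3 transcripts in the bright Esrp2 probe set was not tested, and the presence of Esrp2 transcript is not settled by these arrays.

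**Figure D2:**
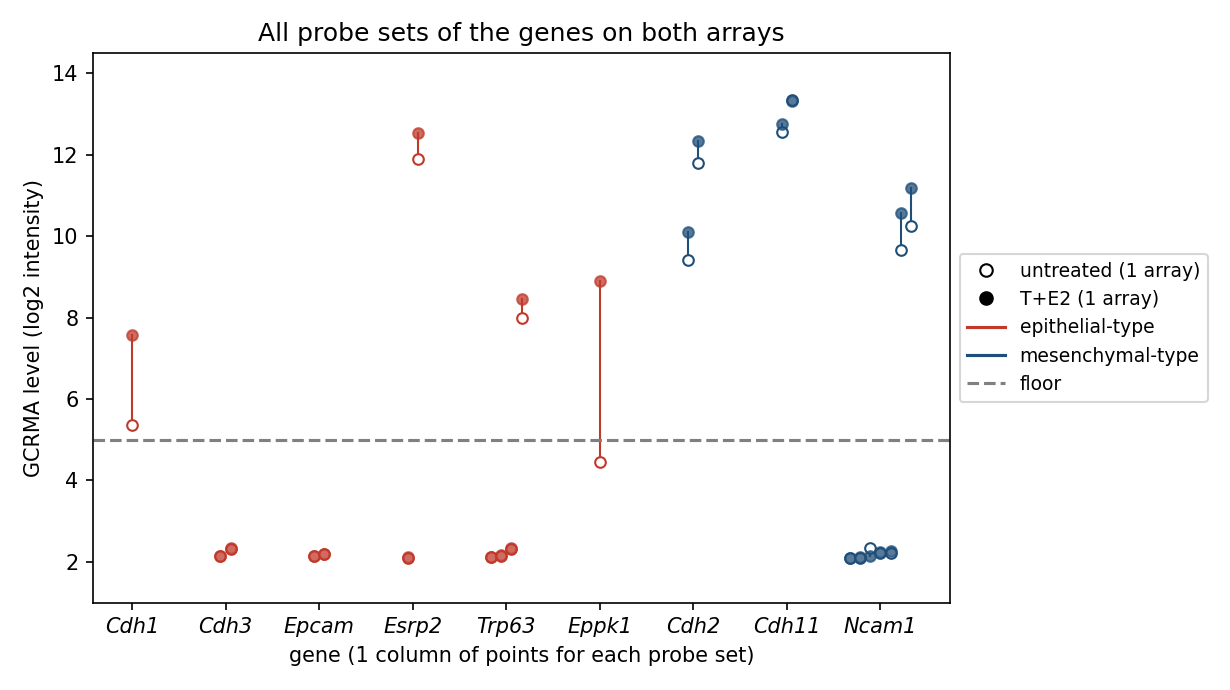
The log2 GCRMA level (vertical axis) of all 23 probe sets of the 9 genes, 1 column of points each, on the untreated (open) and T+E2 (filled) arrays, with the floor dashed. Probe sets of Esrp2, Trp63 and Ncam1 fall into a bright part and a part near 2, whereas both probe sets of Cdh2 and of Cdh11 are bright.

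In all, 10 of the 23 probe sets reached the floor and 13 lay between 2.09 and 2.35. Of the 9 that reached it on each array, 8 were higher with T+E2 and 1 (of Cdh11) was lower, and over all 16710 probe sets with both values above the floor, 56.5% were higher with T+E2. Of the 5 measured genes with several probe sets, 3 (Esrp2, Trp63 and Ncam1) had at least 1 probe set under the floor on both arrays. Such a mixture was common on these arrays, at 59.3% of 6625 measured genes with several probe sets.

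**Figure D3:**
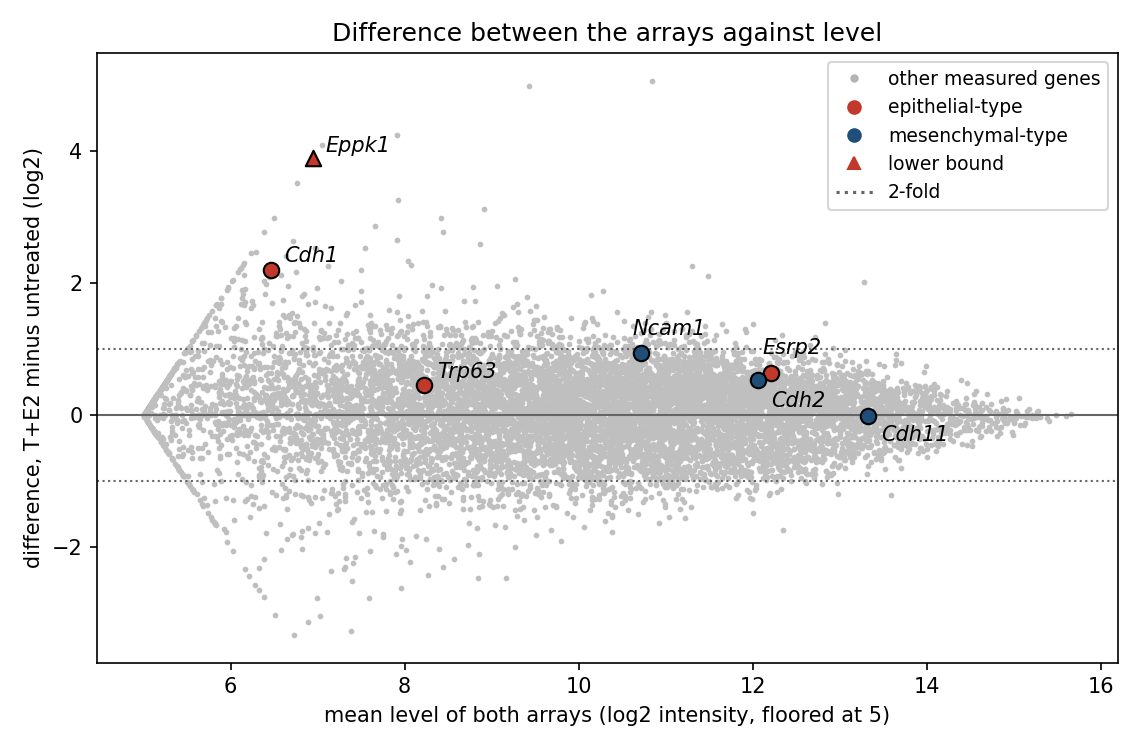
The log2 difference, T+E2 minus untreated (vertical axis), against the mean level of both arrays after the floor (horizontal axis) for 10267 measured genes in grey, with the 7 measured genes marked and the 2-fold limits dotted. Eppk1 (a lower bound, triangle) and Cdh1 lie at the low end of the level range and above 2-fold, while Esrp2, Cdh2, Ncam1, Trp63 and Cdh11 lie within it.

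Genes whose pair of levels lay nearest to that of Cdh1 were found by Euclidean distance over the 2 arrays, among genes whose probe sets that reached the floor lay on 1 side. These were Nr4a1 (5.39 untreated and 7.50 with T+E2, distance 0.08), 2700049A03Rik (5.52 and 7.64, distance 0.16) and Per1 (5.42 and 7.41, distance 0.17). No such genes are given for Eppk1, whose untreated value lay under the floor. Since each probe set has its own affinity, this describes nearness of signal and not of transcript amount.

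The cadherin family beyond these genes was mostly under the floor on both arrays. Of 21 cadherin genes on the array, 4 were measured (Cdh1, Cdh2, Cdh11 and Cdh26), 1 was at least 2-fold higher (Cdh1), 0 were lower and 3 lay between. The 17 others, among them the vascular cadherin gene Cdh5 and the P-cadherin gene, lay between 2.11 and 2.54. Such values do not show that a transcript was absent. Of all genes on the array, 56.4% were measured. Cdh26 was at 12.23 on both arrays, a difference of 0.01 from 1 probe set.

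The widely expressed catenin genes that anchor cadherins (Ctnnb1, Ctnna1, Ctnnd1 and Jup) were measured on both arrays, whereas Ctnna2, Ctnna3 and Ctnnd2, catenins known mainly from neural and heart tissue, were under the floor. Of 16 genes of catenins and the adherens junction, 11 were measured, 0 were at least 2-fold higher or lower and 9 lay above 0, with a median of 0.40 (7 and 0.09 after the span trend was subtracted). Over all measured genes 55.8% lay above 0. When probe sets were averaged, the vinculin gene Vcl, whose product binds alpha-catenin, passed 2-fold (1.07). The beta-catenin gene Ctnnb1 was at 14.17 untreated and 14.30 with T+E2 (0.13). The largest differences in the list were those of Nectin2 (0.90), a nectin adhesion receptor with probe sets on both sides of 0, and Afdn (0.71), whose product afadin links nectins to actin. The plakoglobin gene Jup, shared by adherens junctions and desmosomes, differed by 0.70.

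In the list of desmosomes and plakins, all 6 measured genes of 17 on the array lay above 0, 2 were at least 2-fold higher and 0 were lower, with a median of 0.81. After subtraction of the span trend 5 of the 6 did, the exception being Dst, and the median was 0.66. Over all measured genes 55.8% lay above 0, 4.96% were at least 2-fold higher and 4.01% at least 2-fold lower. Eppk1 reached the floor only with T+E2, so before the span trend was subtracted it could only lie above 0. Without Eppk1, 5 genes were measured, 1 was at least 2-fold higher and the median was 0.70. Beside Eppk1, the plakophilin-2 gene Pkp2 was higher, at 7.50 untreated and 8.91 with T+E2 (1.41), with all 3 of its probe sets that reached the floor on that side. The plectin gene Plec, a plakin of many cell types, differed by 0.92. With averaged probe sets Plec passed 2-fold (1.29) and Pkp2 did not. The desmosomal cadherin genes Dsg2 and Dsc2, the desmoplakin gene Dsp and the plakin genes Evpl and Ppl were under the floor on both arrays, so Pkp2 and Jup were the measured desmosome genes of the list, the other measured genes being plakins.

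Of 15 keratin genes 1 was measured. Krt10, a keratin of differentiating epidermis, was at 9.15 untreated and 8.11 with T+E2 (-1.03), so it was lower where Eppk1 was higher. With the span trend removed it fell short of the 2-fold count. The simple-epithelial keratin genes Krt8 (2.16 and 2.18) and Krt18 (2.25 and 2.26), whose filaments epiplakin binds, were not detectable on either array.

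Among 19 tight junction and polarity genes, 6 were measured and none differed by 2-fold, with a median of 0.38. Of the 6, 3 were measured on both arrays. These were Cldn12 (-0.52, with both probe sets lower), Cldn1 (0.03) and Tjp1, which encodes the scaffold ZO-1 (0.68). The occludin gene Ocln was at 4.91 untreated and 5.94 with T+E2 (at least 0.94). Ocln, Patj and Pard6b, the latter a pair of polarity scaffold genes, reached the floor only with T+E2. Their differences could thus only lie above 0, and the median of 0.38 falls between the bounds of Patj (0.379) and Pard6b (0.391). With a floor of 4, Ocln and Pard6b passed 2-fold. Of 15 epithelial transcription and splicing factors, 3 were measured (Esrp2, Trp63 and Rbm47) and none was 2-fold different. Rbm47, an RNA-binding protein gene, was at 4.32 and 5.49 (at least 0.49), and it passed 2-fold with a floor of 4. Grhl2, Ovol1, Ovol2 and Elf3, transcription factors of the epithelial state, were under the floor on both arrays. Of 17 other epithelial surface and adhesion genes, 2 were measured, Cd24a (0.26) and the integrin gene Itga6 (-0.23).

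Over these 5 epithelial lists together, 18 of 83 genes on the array were measured (21.7%, against 56.4% of all genes). Of the 18, 2 were at least 2-fold higher, 1 was lower and 15 lay between. Without the epithelial-type genes followed here, 15 of 79 were measured, 1 was higher, 1 was lower and 13 lay between, and the median difference was 0.49, against 0.07 over all measured genes. After the span trend was subtracted these medians were 0.10 and 0.01. Of those 15, 4 were measured on the T+E2 array alone (Ocln, Patj, Pard6b and Rbm47) and 0 on the untreated array alone. The same held for 1.61% and 0.906% of all measured genes. The 4 were within 1 log2 unit of the floor on both arrays. Since they entered through the T+E2 array, they could only lie above 0 before the span trend was subtracted. The median of 0.49 is itself the lower bound of Rbm47, so nothing is read from its contrast with 0.07.

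**Figure D4:**
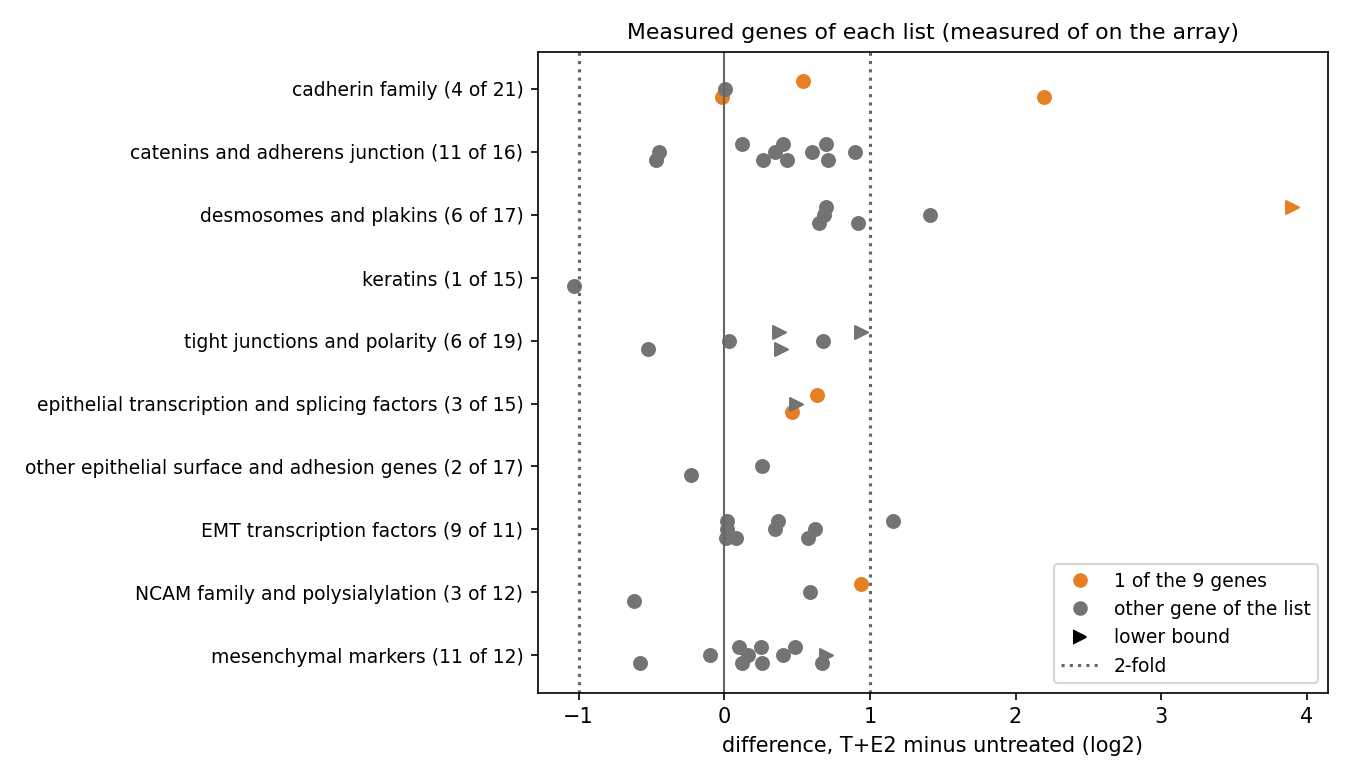
The log2 difference, T+E2 minus untreated (horizontal axis), of each measured gene in 10 gene lists (rows, with how many of the genes on the array were measured), the genes followed here in orange and lower bounds as arrowheads. The points past 2-fold on the higher side are Cdh1, Eppk1, Pkp2 and Zeb2, and Krt10 lies past it on the lower side.

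The repressors of epithelial genes were expressed on both arrays. Of 11 transcription factors of epithelial-mesenchymal transition, 9 were measured and all 9 lay above 0, with a median of 0.35. Over all measured genes 55.8% lay above 0 and the median was 0.07. Centring the arrays on the median difference, or removing the trend with level, left 6 of the 9 factors above 0, with Prrx1, Snai2 and Twist2 below it. Removing the span trend also left 6 above 0. Zeb2, which represses Cdh1, was at 9.53 untreated and 10.69 with T+E2 (1.16) and was the 1 at least 2-fold higher, with 0 lower and 8 between. It fell short of 2-fold with the span trend removed and with the mean of all its probe sets. Zeb1 differed by 0.58, with probe sets on both sides of 0, and Snai1 by 0.35. Snai2 and Twist1 differed by 0.02 and 0.08.

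In the NCAM family and polysialylation list, 3 of 12 genes were measured, 0 were 2-fold different and the median was 0.59, or -0.02 without Ncam1. Beside Ncam1 these were Mcam (0.59) and Alcam (-0.62), and Alcam passed 2-fold on the lower side after the span trend was subtracted (-1.14). The polysialyltransferase genes St8sia2 and St8sia4, whose enzymes add polysialic acid to NCAM, were under the floor on both arrays.

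The mesenchymal label of the cells was set beside marker genes, in lists chosen with earlier results of these data known. Of 12 mesenchymal marker genes 11 were measured, none with a 2-fold difference, with a median of 0.25. With a floor of 4, Fap passed 2-fold on the higher side (1.31). Vim was at 15.13 untreated and 15.23 with T+E2, and Col1a1 at 14.93 and 15.19. By the brightest probe set, the largest differences were those of Fap (at least 0.70) and Pdgfra (0.67). The decorin gene Dcn went the other way (-0.58), with both of its probe sets lower. When probe sets were averaged Dcn stood at -2.50 and was the 1 marker of this list past 2-fold. Thy1 was under the floor on both arrays. Of 9 marker genes of urothelium and prostate epithelium, 0 were measured, and the highest single value was 4.49. The log2 of their summed intensity, 6.04 untreated and 5.54 with T+E2, is thus a sum of values under the floor, and the part of other cells in the values of Cdh1 and Eppk1 was not tested. Epcam, Krt8 and Krt18, defining markers of simple epithelia, were also near the lowest values of both arrays. Of 8 endothelial markers Tek alone was measured (0.20), and of 7 leukocyte markers Lyz2 alone (-1.53). Of 6 neural and Schwann cell markers S100b alone was measured, at -0.16 with probe sets on both sides of 0.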

How the data were processed

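The deposited values are intensities per probe set on a linear scale for 45101 probe sets of an Affymetrix mouse array, and GCRMA is named in the submitters' processing notes, with its version not given in the sources used here. GCRMA draws probe sets without signal to a low value, and 42.9% (untreated) and 42.1% (T+E2) of probe sets reached the floor. Here log2 was taken with no further scaling (Python 3.11.15, pandas 2.3.3). Of the probe sets, 64 were controls, 34945 named 1 gene, 932 named several and 9160 were not listed. Symbols came from the platform annotation, updated by gene identifier through the RefSeq table of GRCm38.p6, which also gave genomic spans and neighbours. No coordinates are given. Where a gene had several probe sets, the brightest by mean log2 stood for it.

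Genes and lists (14) were chosen with earlier results of these data known. Named genes are the 9 genes, up to 4 genes of each list past 2-fold or otherwise the 2 farthest from 0, every measured marker of other cell types, and the nearest genes to Cdh1 (those of Eppk1 are left out, its untreated value being under the floor). Flanking genes, Nfatc3, Cdh26, Ctnnb1, Jup, Plec, Tjp1, Zeb1, Snai1, Snai2, Twist1, Vcl, Dcn, 1810019D21Rik, the mesenchymal markers Vim and Col1a1, and genes named as under or crossing the floor, were added after their values were seen. The claudin genes Cldn1 and Cldn12 were also added then. Trends with level or genomic span were removed by lowess (statsmodels 0.14.6, fraction 0.3). The 2-fold count and the trend removal were run on simulated levels above the floor, with noise smaller than the spread between these arrays (SD 0.62). That run did not cover the floor, the lower bounds or the wider spread of low-level genes. It therefore says nothing on the calls of Cdh1 and Eppk1.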

Additional observations from a re-analysis of the deposited data

How the results depend on the processing

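The calls of Cdh1 and Eppk1 as at least 2-fold higher held under all 8 alternatives tried (floors of 4 and 6, no floor, the mean of all probe sets, centring on the median difference or on the spikes, and removal of the level or the span trend). Some of these could not change the calls. Each gene has 1 probe set, so averaging returned the same value. A floor of 4 or no floor also left Cdh1 the same and could only raise the bound of Eppk1. Centring subtracted 0.07 (median) or -0.05 (spikes) from every gene, too little to bring either gene under 2-fold. Cdh1 ranged from 1.57 to 2.25 and Eppk1 from 2.90 to 4.45. The 87 comparisons with an alternative covered single genes, the 2-fold counts and the medians of the epithelial-type and mesenchymal-type genes. In 86 the count or the side of 2-fold was unchanged, which a difference under 2-fold could meet while it shrank to 0. The exception was the epithelial-type median without a floor (0.55). Leaving out Esrp2, chosen after seeing the data, gave 2.20. The mesenchymal-type median of 0.54 was 0.00 without the span trend. When probe sets were averaged, Ncam1 and Trp63 fell under the floor and have no value. The list counts were run under 5 of the alternatives (a floor of 4, no floor, averaged probe sets, median centring and the span trend). Of those 140 list counts, 14 changed, either from 0 to 1 or 2 genes or from 1 to 0. Many of the 126 others were 0 in every setting run. An unchanged count could also hold other genes, as with averaged probe sets, where Plec took the place of Pkp2 among desmosomes and plakins. Some small differences changed sign or vanished: Trp63 stood at -0.06 and Cdh2 at 0.00 without the span trend, and Cdh11 at 0.04 with spike centring. Over all measured genes, 509 were at least 2-fold higher and 412 lower, which became 315 and 400 when probe sets were averaged, 303 and 433 with the span trend removed, and 408 and 520 with centring on the median, so the larger count changed sides. No paired analysis was possible because each group has 1 array. No array could be left out, for the same reason.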
